A study of Mus musculus with 24 samples.

Results

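Interferon-stimulated genes are the genes that cells switch on after interferon binds its receptor. Type I interferons signal through the receptor subunits IFNAR1 and IFNAR2 and the kinases JAK1 and TYK2, which phosphorylate STAT proteins, STAT2 among them. These form with IRF9 the complex ISGF3, which binds the interferon-stimulated response element (ISRE) in target promoters, whereas interferon gamma acts at the gamma-activated site (GAS). The products sense viral nucleic acids, degrade RNA, block translation and entry of viruses, or feed back on the pathway, and in the eye they are studied in resident and recruited myeloid cells, vascular cells and the retinal pigment epithelium (RPE).

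A list of 41 genes by symbol was followed through the table, each matched to 1 Ensembl gene among 56065 in all. All 41 had a normalized count above 0 in each of the 24 libraries, against 18076 of the 56065 genes, and all 41 passed the filter on low values in each of the comparisons. The symbols were chosen by their known role, with earlier results of these data known. By role the list holds 5 genes of signalling and transcription, 4 nucleic acid sensors, 5 oligoadenylate synthetases and their relatives, 4 IFIT genes, 7 GTPases, 2 genes of ISG15 conjugation, 3 of ADP-ribosylation and 11 other effectors.

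The libraries came from the RPE, choroid and sclera complex of wild type mice and of littermates with a homozygous deletion of the first exons of Ceacam1, an adhesion receptor of vascular and immune cells, in every cell of the body and on the C57BL/6J background. Eyes were either untouched (4 wild type and 4 Ceacam1-/- libraries) or had received 6 laser spots per eye at 150 mW, 200 µm and 100 ms (9 wild type and 7 Ceacam1-/- libraries), an injury that breaks the membrane under the RPE. The mice were young adults of both sexes. The labels give neither sex nor age of the single animals, nor the time between laser and dissection, nor whether tissue was pooled, so that p-values measure the spread between these libraries.

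Ceacam1 itself was read first as a check of the labels. Without laser it was at 958, 5027, 1242 and 4596 normalized counts in the wild type libraries 21, 22, 26 and 27 and at 405, 505, 508 and 1171 in the Ceacam1-/- libraries 23, 24, 25 and 28. With laser the 9 wild type libraries ran from 774 over a median of 996 to 8367, and the 7 Ceacam1-/- libraries from 67.8 over 335 to 905. The genotypes overlapped with and without laser, since the Ceacam1-/- libraries 28 and 15 exceeded the lowest wild type library of their laser group. The gene-level value also counts exons that the deletion leaves in place.

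Sequence around the start of these genes is shown first, since the ISRE is the feature they are known for. RefSeq promoters (250 bases before to 50 after the start, GRCm38) were found for 30 of the 41 symbols. The other 11 were Dhx58, Gbp4, Usp18, Rtp4, Parp14, Ifi27, Oas2, Mx2, Parp9, Mx1 and Zbp1. The ISRE letters were searched as GAAA, any 2 bases and GAAA again, on both strands. They stood in 17 of the 30 (56.7%) and in 3.99% of all 27025 symbols of the table. With the 250 bases before the start alone the shares were 46.7% and 3.46%, and with a C required after the second GAAA 50% and 0.944%. The GAS letters (TTC, any 3 bases and GAA, likewise on both strands) stood in 10 of the 30 (33.3%) and in 9.55% of all symbols, and in Oas1a, Bst2, Ifitm3, Eif2ak2, Gbp5 and Gbp7 beside the ISRE letters. A match is a run of letters and not a measured binding site.

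The following stretches hold the ISRE letters of some of the genes described below. They are given 5′ to 3′ on the strand of the gene, with matches on either strand in capitals. Positions are those of the 250 bases before the start, which were found once on their chromosome in GRCm39 for each gene.
Isg15 at chr4:156285317-156285368 (minus strand): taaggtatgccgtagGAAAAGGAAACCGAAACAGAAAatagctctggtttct
Ifit1 at chr19:34618170-34618228 (plus strand): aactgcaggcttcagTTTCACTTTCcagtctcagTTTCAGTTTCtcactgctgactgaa
Ifit3 at chr19:34560758-34560831 (plus strand): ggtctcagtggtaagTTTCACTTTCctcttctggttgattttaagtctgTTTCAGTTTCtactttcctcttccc
Oas3 at chr5:120915775-120915814 (minus strand): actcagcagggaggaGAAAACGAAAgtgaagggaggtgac
Rsad2 at chr12:26506547-26506586 (minus strand): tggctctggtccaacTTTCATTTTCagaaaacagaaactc
Bst2 at chr8:71990216-71990261 (minus strand): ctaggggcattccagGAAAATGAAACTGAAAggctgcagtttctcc
Stat2 at chr10:128106130-128106169 (plus strand): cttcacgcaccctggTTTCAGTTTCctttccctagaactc
Isg15 held 3 overlapping matches between 78 and 57 bases before its start. Ifit1, Ifit3 and Bst2 held 2 matches each, and the stretch of Ifit3b at chr19:34585154-34585227 was letter for letter that of Ifit3. In Stat2 the single match lay 222 to 213 bases before the start, farther than in any other of the 17 genes. No match was found in the windows of 13 members, among them Irf7, Oasl2, Ifit2, Cmpk2 and Xaf1, which are also described below.

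**Figure D1:**
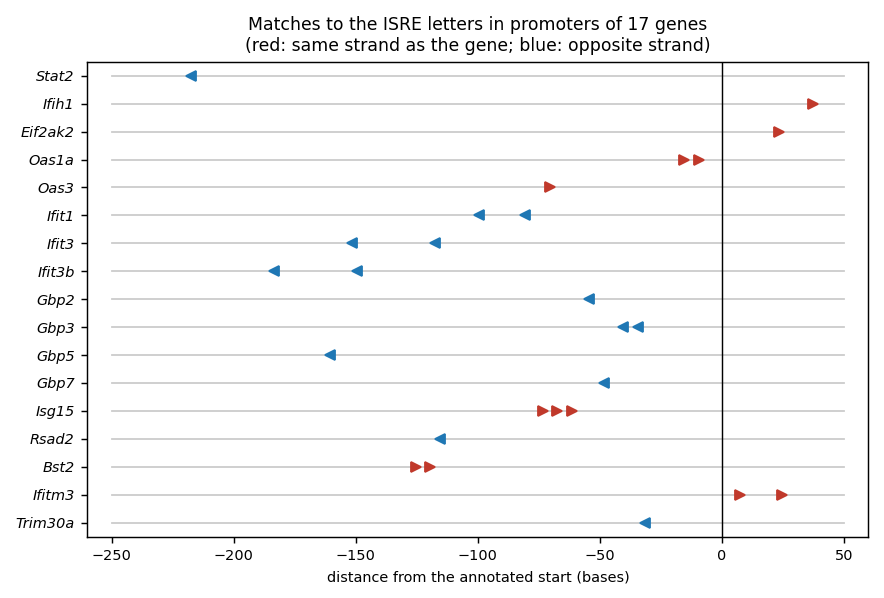
Position of each match to the ISRE letters relative to the annotated RefSeq start (x axis, bases; black line: the start) in the 17 genes that held one, with red arrowheads for the strand of the gene and blue for the opposite strand, in the first promoter listed for a symbol. Matches of 14 genes lay before the start, and those of Ifih1, Eif2ak2 and Ifitm3 after it.

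Many members lie next to each other in the genome. On chromosome 19, Ifit2, Ifit3, Ifit3b and Ifit1 follow each other on 1 strand. Gbp5, Gbp7, Gbp3 and Gbp2 do so on chromosome 3, Oas2, Oas3 and Oas1a as well as Oasl2 and Oasl1 on chromosome 5, and Mx1 lies beside Mx2 on chromosome 16. Rsad2 and Cmpk2 are divergent neighbours on chromosome 12, and Dtx3l and Parp9 overlap head to head by 682 bases. Reads of near copies may have been split in the counting. The transcripts of Ifit3 and Ifit3b are 97.2% identical, that of Oas1a is 97.6% identical to Oas1g, and Isg15 is 95.2% identical over 61.6% of its length to the processed pseudogene Gm9706. Of the 41 genes, 18 overlap a gene on the opposite strand. Among them are Irf7 with Phrf1 and Parp9 with the lncRNA Gm15564, and the use of strand in the counting is not given in the sources used here.

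Tissue markers were above 0 for the RPE (Rpe65, Best1, Rlbp1, Lrat, Rdh5 and Rgr), endothelium and melanocytes in each library. Other tissue was present in very unequal amounts. Markers of photoreceptors summed to over 500000 normalized counts in libraries 14, 15 and 18 (Ceacam1-/- with laser), 21 (wild type without laser) and 23 (Ceacam1-/- without laser), whereas the lowest library, 25, had 3077. Keratins and Trp63 are markers of surface epithelium such as cornea and conjunctiva. They summed to 393500 in library 15, 391660 in library 28 and 291710 in library 22. Libraries 19 and 27 followed with 102180 and 69052. The group medians were 34583 (wild type) and 6499 (Ceacam1-/-) without laser, against 343 and 241 with laser. Results below are also given without libraries 14, 15, 18, 21 and 23, without 15, 22 and 28 or without single libraries where the calls of the members or their median then changed. In bulk tissue, fewer cells of a type and less RNA per cell cannot be told apart.

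Relative to transcript length, the highest level in wild type choroid without laser belonged to Ifitm3, a membrane protein that blocks virus entry, at a median of 4626 normalized counts per kb. It was followed by Bst2 (tetherin, which holds budding virions at the cell surface) with 1671, Ifi27 with 1251, Ifit3 with 874 and Ifi35 with 845. At the lower end stood Gbp5 with 39.0, Mx1 with 22.3, Mx2 with 17.4 and Oas3 with 15.9. The order of neighbours was not fixed. The 4 libraries of Bst2 ran from 1180 to 2567 counts per kb and those of Ifi27 from 928 to 1706, so that these 2 overlapped, whereas the lowest Ifitm3 library, at 2710, stood above the highest Bst2 library.

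Except in the wild type laser group, the libraries of a group differed more in these genes than the group means did. Averaged over the 41 genes on the log2 scale, the 9 wild type laser libraries lay between 9.09 and 9.40, a range of 0.31. The 7 Ceacam1-/- laser libraries spread from 8.24 to 10.77, a range of 2.53. Without laser, wild type libraries ran from 7.93 to 9.28 and Ceacam1-/- libraries from 8.77 to 10.10. Group means ± SD were 8.79 ± 0.59 (wild type, n = 4), 9.15 ± 0.64 (Ceacam1-/-, n = 4), 9.27 ± 0.09 (wild type with laser, n = 9) and 9.52 ± 0.97 (Ceacam1-/- with laser, n = 7). The 4 groups overlapped. The SD on the log2 scale was larger in Ceacam1-/- laser libraries than in wild type laser libraries for all 41 members and for 64.5% of all 19950 genes in the 24-library fit. The median SD of the members was 0.95 against 0.35, and that of all genes 0.62 against 0.46.

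**Figure D2:**
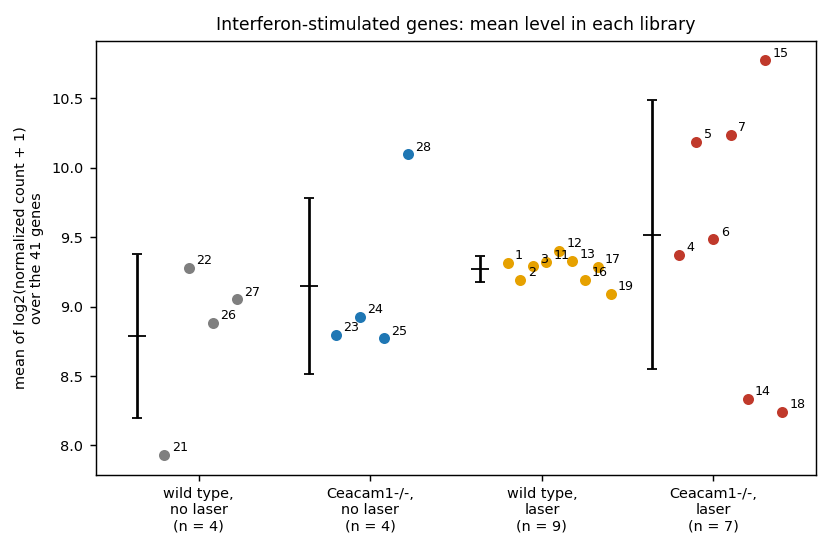
Mean of log2(normalized count + 1) over the 41 genes (y axis) for each library (points, with library numbers) in the 4 groups, with the group mean ± SD in black at the left of each group. The wild type laser libraries sit between 9.09 and 9.40, and the Ceacam1-/- laser libraries between 8.24 and 10.77.

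Library 15 (Ceacam1-/- with laser) was the highest of its group for 28 of the 41 genes (68.3%), a place it took for 11.2% of all genes. Its Oasl1 value, an oligoadenylate synthetase relative that restrains translation of Irf7, was 2957, 26.6-fold the median of the other 6 libraries on the value plus 1. Oas3, which makes the 2-5A that activates RNase L, was at 1738 (21.3-fold) and Ifit1, which binds viral RNA lacking host cap marks, at 12280 (9.77-fold). Library 28 (Ceacam1-/- without laser) led its group for 32 of 41 genes (78.0%, all genes 23.5%), with Oas3 at 678 (18.4-fold), Oasl1 at 1626 (17.95-fold) and the ubiquitin-like modifier Isg15 at 3071 (7.53-fold). Library 22 (wild type without laser) led for 25 (61.0%), against 28.04% of all genes, with Oasl1 at 775 (14.3-fold) and Oas3 at 321 (10.9-fold). These are the 3 libraries with the most surface epithelium RNA. That RNA's part in the level of the members was not tested.

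Libraries 5 and 7 (Ceacam1-/- with laser) were high in another way. Their surface epithelium sums were 112 and 7215, and their photoreceptor sums 64973 and 135240. Against the median of the other 6 libraries of the group, library 5 was at least 2-fold higher for 13 members and library 7 for 15, while 5.50% and 5.00% of all genes reached that ratio. The leading members were not the oligoadenylate synthetases alone. Rsad2 (viperin, which makes a chain-terminating nucleotide) was at 1561 and 1818 in libraries 5 and 7, 3.28-fold and 3.82-fold the median of the others. Transcripts of the GTPase gene Mx1, whose allele in C57BL/6 strains gives no functional protein, were at 384 and 391.9 (3.09-fold and 3.15-fold). All 4 IFIT genes exceeded 2-fold in both libraries. Their T and NK cell marker sums, 371 and 396 over 6 markers with Trac as the most abundant, were the highest of the 24 libraries. Library 6, which did not stand out in the members, followed with 359, and the part of such cells was not tested.

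Of the 3 libraries lowest over the members, all were rich in photoreceptor RNA. The reverse did not hold, since library 15, the highest of all, had a photoreceptor sum of 512440 and a myeloid sum of 25057. Among the unlasered Ceacam1-/- libraries, library 25 had the lowest mean (8.77) and the lowest photoreceptor sum of all 24. Library 21 was the lowest wild type library without laser for 38 of the 41 genes (92.7%), against 33.1% of all genes. Libraries 14 and 18 (Ceacam1-/- with laser) were the lowest of their group for 17 and 22 genes (41.5% and 53.7%), against 21.1% and 16.6% of all genes. Their median ratio to the other libraries was 0.35 in both over the members, whereas the median over all genes was 1.04 and 1.05. Their myeloid marker sums were 28280 and 17101 and their endothelial sums 8528 and 12486, against group medians of 66238 and 27795. The part of this composition in the low values was not tested.

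**Figure D3:**
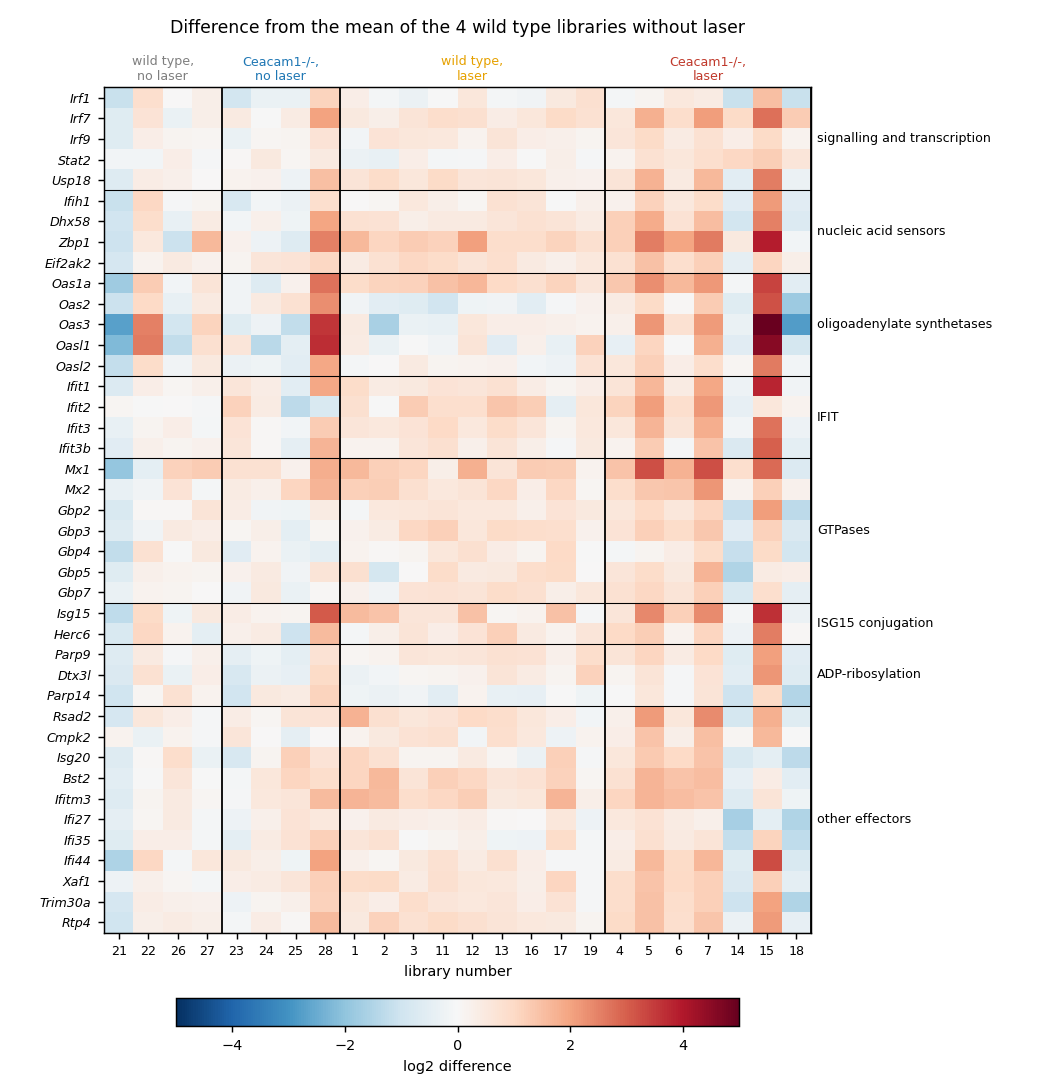
Difference of each of the 41 genes (rows, grouped by role) in each of the 24 libraries (columns, grouped by genotype and laser) from the mean of the 4 wild type libraries without laser, on the log2 scale. Differences ran from -2.80 to 4.95, with the deepest red in library 15 (Oas3, Oasl1, Zbp1 and Ifit1) and library 28 (Oas3 and Oasl1), a broader red in libraries 5 and 7, and blue in libraries 21, 14 and 18.

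Laser in wild type choroid asks whether injury alone moved these genes. No member passed the threshold of an adjusted p of 0.05 (limma with Benjamini-Hochberg adjustment), while 5.28% of the 19950 genes tested did (4.23% higher, 1.05% lower). At an unadjusted p under 0.05 stood 5 members (12.2%) and 20% of all genes. The direction was nevertheless uneven. The fitted difference was above 0 for 38 of 41 members and for 42.1% of all genes, and its median was 0.50 on the log2 scale against -0.10 over all genes. For no member were the 2 groups apart without overlap, against 6.25% of all genes.

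The 3 members of lowest p were Ifitm3, Bst2 and Eif2ak2. Ifitm3 was at 3461, 5964, 7359 and 5850 normalized counts without laser and at 6622, 11044 and 17826 (lowest, median and highest of 9) with laser. Of the laser libraries, 8 lay above each unlasered one, and library 19 below library 26. The difference was 1.05 ± 0.39 (SE, log2 scale), a 2.08-fold higher value, with an adjusted p of 0.123 by limma and p = 0.00559 in a two-sided exact permutation test of this gene. Over 37 alternatives its adjusted p by limma ran from 0.00648 to 0.376. It passed in 2 of them, a fit on the wild type libraries alone (0.0273) and array weights (0.00648), where 11.6% and 32.6% of all genes passed.

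Bst2 was at 951, 1344, 2069 and 1350 without laser and at 1476, 2843 and 4229 with laser. Again 8 of the 9 laser libraries exceeded the highest unlasered library. The difference was 0.91 ± 0.36, with an adjusted p of 0.153 by limma and an exact permutation p of 0.00559. Over 37 alternatives its adjusted p by limma ran from 0.00530 to 0.407, and it passed in the same 2 as Ifitm3. Eif2ak2, the kinase PKR that halts translation on double-stranded RNA, was at 190, 394, 469 and 400 without laser and at 406, 536 and 714 with laser (0.65 ± 0.28, adjusted p = 0.186 by limma, exact permutation p = 0.0140). It passed under 1 alternative, array weights, and its adjusted p by limma ran from 0.0107 to 0.589. Its low unlasered value of 190 was library 21, which had the most photoreceptor RNA of its group. Without library 21 the median over the 41 members was 0.25, with 31 above 0, and without library 22 it was 0.66.

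By role, the median difference in wild type was 0.64 for the 2 genes of ISG15 conjugation, 0.61 for the 4 nucleic acid sensors, 0.57 for the 4 IFIT genes, 0.52 for the 7 GTPases, 0.50 for the 11 other effectors and 0.36 for the 5 signalling genes. It was 0.26 for the 3 genes of ADP-ribosylation and 0.11 for the 5 oligoadenylate synthetases. Stat2 (0.01 ± 0.17), Oas3 (-0.03 ± 1.05) and Irf1 (0.16 ± 0.41) were among the members with the smallest differences, though the error of Oas3 spans large changes either way. The myeloid list moved with the laser. Of its 14 markers 13 rose, and the median difference over all 14 was 2.24. The sum of the 14 went from a median of 14713 to 77380 with Lyz2 as the most abundant. Of the 5 neutrophil markers 3 were tested, and Csf3r (1.85 ± 0.44) and S100a8 (2.37 ± 0.56) rose. The more specific Ly6g and Retnlg were too low for a test. Ly6g was above 0 only in libraries 1 (2.3) and 15 (4.1), and Retnlg was at 0 in some libraries. No marker of the other lists passed, among them muscle (median -1.10), photoreceptors (-1.52), surface epithelium (-1.66) and lens (2.32). The part of any of these cells in the members' difference was not tested.

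In Ceacam1-/- choroid, no member passed either, while 3.72% of all genes did (2.07% higher, 1.65% lower). At an unadjusted p under 0.05 stood 5 of 41 (12.2%, all genes 20%). The median difference was 0.43 against 0.02 over all genes, and 35 of 41 were above 0 (all genes 51.2%). Over the 37 alternatives the members' median ran from 0.17 to 0.79, with 30 to 40 members above 0. Between 1 and 25 members then stood at an unadjusted p under 0.05 by limma. The groups of no member were apart without overlap (all genes 2.13%). Stat2, Ifit2 and Cmpk2 had the lowest p.

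Stat2, the STAT that ISGF3 needs, was at 1040, 1390, 1072 and 1356 in the unlasered Ceacam1-/- libraries. With laser its 7 libraries were at 1136, 1714, 1479, 1798, 2044, 2373 and 1508 in the order of library number, all but the first above the unlasered ones. The difference was 0.48 ± 0.18 (1.40-fold), with an adjusted p of 0.136 by limma and an exact permutation p of 0.0303. Ifit2 was at 1078, 634, 197 and 285 without laser and between 366 and 2198 with laser (median 867), so the groups overlapped widely (1.06 ± 0.46, adjusted p = 0.192 by limma, exact permutation p = 0.127). Cmpk2, a mitochondrial nucleotide kinase, was at 658, 445, 323 and 445 without laser and between 425 and 1335 with laser. It differed by 0.69 ± 0.31 (adjusted p = 0.209 by limma, exact permutation p = 0.133). Libraries 5, 7 and 15 gave the 3 highest Cmpk2 values, and libraries 5 and 7 the highest Ifit2 values.

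The members' result in Ceacam1-/- depended on the libraries kept. Their median was 0.17 with 30 above 0 without library 15, 0.24 without library 25 and 0.28 without library 23, and 0.63 with 38 above 0 without library 28 and 0.59 without library 14 or 18. Without the 5 libraries of highest photoreceptor RNA, 5 members passed and all were higher with laser, where 14.9% of all genes passed. They were Ifit2 (2.11, adjusted p = 0.00273 by limma), Gbp3 (1.07), Cmpk2 (1.02), Gbp7 (0.85) and Gbp2 (0.79), named here after their values were seen. Over all alternatives the adjusted p of Ifit2 ran from 0.00273 to 0.634. Guanylate-binding proteins such as Gbp2, Gbp3 and Gbp7 attack membranes of intracellular pathogens and respond strongly to interferon gamma. Of the myeloid markers 9 of 14 rose in Ceacam1-/- choroid (median of the 14, 1.80), and the sum went from a median of 13477 to 66238. Of the 3 neutrophil markers tested 1 passed, S100a8, which was higher with laser (3.25 ± 0.59). No marker of the other lists passed, but all 6 muscle markers (median -2.10) and 5 of 6 RPE markers (median of the 6, -1.61) stood below 0 at an unadjusted p under 0.05, and all 7 photoreceptor markers stood above 0 (2.34) with none at such a p. The part of these tissues in the members' difference was not tested.

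**Figure D4:**
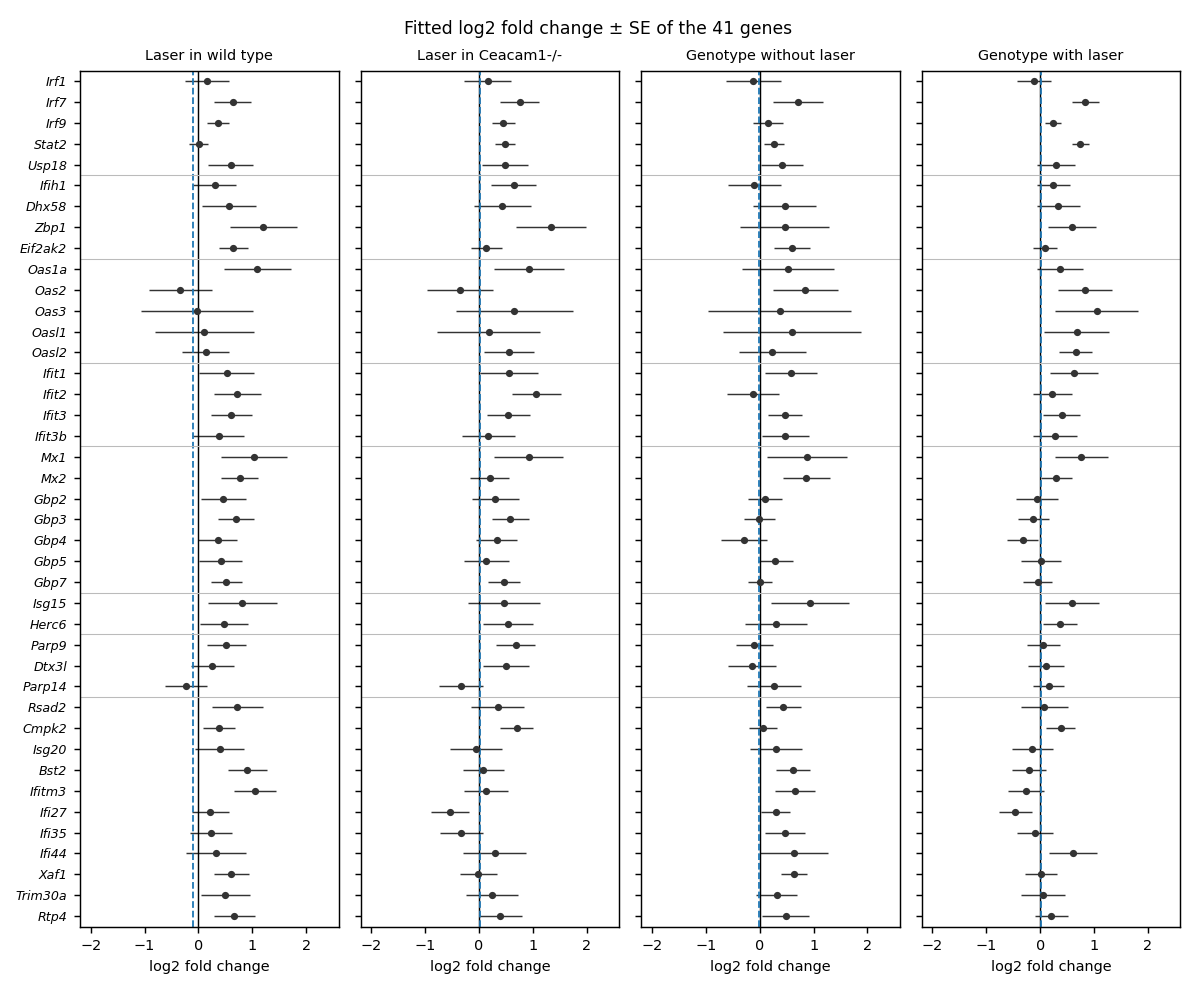
Fitted log2 fold change (points) ± SE (bars) of each of the 41 genes in 4 comparisons, with 0 as a black line and the median of all genes tested as a dashed blue line. Most points lie right of the dashed line in all 4, and none passed an adjusted p of 0.05.

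Whether the laser difference itself differed between genotypes was read from the interaction of laser and genotype. No member and no other gene passed (0% of 19950 by limma). At an unadjusted p under 0.05 stood 0 members, against 6.22% of all genes. The median was -0.11 over the members and 0.01 over all genes, with 14 of 41 above 0 (all genes 50.5%). The lowest p belonged to Stat2 (0.48 ± 0.25, adjusted p = 0.640 by limma), Ifitm3 (-0.92 ± 0.57, adjusted p = 0.640) and Bst2 (-0.83 ± 0.52, adjusted p = 0.640). The 95% interval for Stat2 ran from -0.05 to 1.00, and that for Ifitm3 from -2.09 to 0.25. The sign of the median was not stable. It was above 0 when library 14 (0.12), 18 (0.13), 21 (0.23) or 28 (0.21) was left out alone, and 0.30 with 34 members above 0 without the 5 libraries of highest photoreceptor RNA. It was -0.35 without library 15, -0.29 without 25, -0.28 without 22, -0.23 without 27, -0.22 without 7, -0.21 without 5, -0.07 without 11, -0.06 without 12 and -0.16 without libraries 15, 22 and 28.

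Without laser, the comparison of genotypes asks whether loss of Ceacam1 alone shifted these genes in untouched choroid. No gene passed, members included (0% of 20057 by limma without sex as a covariate). The paper, which used DESeq2 with sex as a covariate, does report genes with an adjusted p under 0.05 between these genotypes. The absence of calls here thus does not show that no gene differs. Of the members 1 stood at an unadjusted p under 0.05, Xaf1, against 1.53% of all genes. The median difference was 0.41 against -0.02 over all genes, and 34 of 41 members were higher in Ceacam1-/- (all genes 47.9%). Much of that size rested on 2 libraries, since the median over the members was 0.07 without library 28 and 0.12 without library 21. It was 0.24 without libraries 21 and 23 and 0.21 without libraries 22 and 28.

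Xaf1, an interferon-induced partner of the caspase inhibitor XIAP, was at 478, 681, 624 and 544 in wild type and at 731, 762, 885 and 1325 in Ceacam1-/- choroid. It was the member of 41 whose groups did not overlap, as they did not for 1.36% of all genes. The difference was 0.64 ± 0.24 (1.56-fold, adjusted p = 0.999 by limma), and the exact permutation p of 0.0286 is the smallest that 4 against 4 libraries can give. Mx2 was at 36.0, 40.9, 75.2 and 43.2 against 62.9, 56.3, 99.1 and 156 (0.86 ± 0.44, adjusted p = 0.999 by limma, exact permutation p = 0.0857). Bst2 was at 951, 1344, 2069 and 1350 against 1280, 2055, 2933 and 2562 (0.62 ± 0.32, adjusted p = 0.999 by limma, exact permutation p = 0.20). Both overlapped.

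With laser, the genotypes were compared in 16 libraries. No member passed, and 0.0202% of the 19757 genes did (0.0101% higher, 0.0101% lower). At an unadjusted p under 0.05 stood 3 members (7.32%), Stat2, Irf7 and Oasl2, against 22.7% of all genes. The median difference was 0.24 against 0.01, with 31 of 41 higher in Ceacam1-/- (all genes 51.2%). Over the 29 alternatives the members' median ran from 0.02 to 0.53, with 22 to 41 members higher. Between 2 and 25 members then stood at an unadjusted p under 0.05 by limma.

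Stat2 ran from 777 over a median of 961 to 1268 in the 9 wild type laser libraries and from 1136 over 1714 to 2373 in the 7 Ceacam1-/- laser libraries. Library 4 alone of the Ceacam1-/- libraries lay within the wild type range, and 6 of the 9 wild type libraries lay below all Ceacam1-/- libraries. Means ± SD were 1020 ± 186 (n = 9) and 1722 ± 405 (n = 7). The difference was 0.74 ± 0.15 (1.67-fold, 95% interval 0.42 to 1.07), with an adjusted p of 0.0822 by limma and a two-sided exact permutation p of 0.000699. Over the 29 alternatives the difference stayed between 0.59 and 0.84, with adjusted p from 0.0321 to 0.407. In the photoreceptor-rich libraries 14 and 18 Stat2 was at 2044 and 1508, 1.27-fold and 0.859-fold the median of the other libraries of the group, where the median ratio over the members was 0.35. Stat2 lies at chr10:128106352-128128735 (GRCm39, plus strand, 24 exons), and no annotated gene overlaps it.

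Irf7, the transcription factor that amplifies the type I interferon genes, ran from 746 over 936 to 1163 in wild type and from 890 over 1464 to 4093 in Ceacam1-/- laser libraries. Of the 7 Ceacam1-/- libraries 5 exceeded all wild type libraries, and libraries 4 and 6 did not. The difference was 0.83 ± 0.25 (1.78-fold), with an adjusted p of 0.127 by limma and an exact permutation p of 0.00524. Irf7 (chr7:140842619-140846398, minus strand) overlaps Phrf1 on the other strand.

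Oasl2 ran from 977 over 1285 to 1905 in wild type and from 1060 over 1710 to 6932 in Ceacam1-/- (0.65 ± 0.30, adjusted p = 0.209 by limma, exact permutation p = 0.0504). The highest value, 6932, was library 15. All 5 genes of the oligoadenylate synthetase family had a difference above 0, with a median of 0.67, and library 15 was their highest library. Without library 15 the median over the 41 members went from 0.24 to 0.02 with 22 above 0. It was 0.15 without library 5 and 0.12 without library 7, whereas it was 0.43 without library 14 and 0.42 without library 18. Without libraries 14, 15 and 18 together it was 0.52 with 40 above 0, and no member passed in any of these cases. The wild type and Ceacam1-/- laser groups also differed in what they held. The RPE sum had a median of 221390 and 97488, the photoreceptor sum 45425 and 135240, and the muscle sum 314800 and 100210. The part of this difference in the members' values was not tested.

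**Figure D5:**
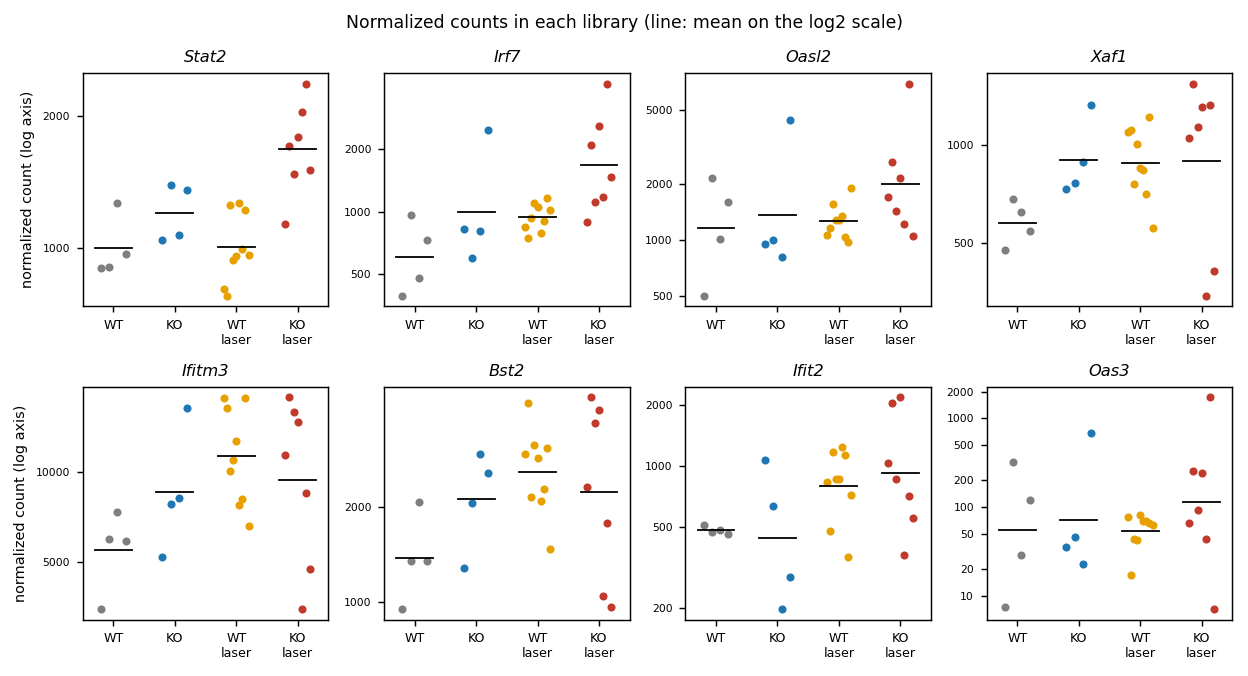
Normalized counts (y axis, log scale) of 8 members in each library of wild type (WT) and Ceacam1-/- (KO) choroid without and with laser, with the mean on the log2 scale as a line. For Stat2, 6 of 7 Ceacam1-/- laser libraries lie above all wild type laser libraries, whereas for Oas3 single libraries of 3 groups stand far above the rest.

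The other genes of the pathway were read from a list of 56. The ligands came first. Of the 10 interferon genes listed (Ifna1, Ifna2, Ifna4, Ifna5, Ifnb1, Ifne, Ifnk, Ifng, Ifnl2 and Ifnl3), none reached the mean of 10 needed for a test. Ifna4, Ifna5, Ifne and Ifnl3 were at 0 in all 24 libraries. The highest single value was that of Ifnb1, at 9.50 in library 7, where Ifng also had its highest value of 5.93. Ifnb1 was above 0 in 3 libraries and Ifng in 9. Without read depth, a limit of detection cannot be set for them.

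Of the 43 pathway genes tested, 6 rose and none fell with laser in wild type choroid, where 5.28% of all genes passed. Ifnar2, the type I receptor subunit that binds first, was at 799, 1108, 1503 and 908 without laser and from 1779 over 2138 to 2645 with laser, with no overlap (1.04 ± 0.29, adjusted p = 0.0386 by limma). Sting1, the adaptor that couples sensing of cytosolic DNA to interferon, was at 73.2, 164, 194 and 165 against 443 over 605 to 904 (2.16 ± 0.36, adjusted p = 5.67e-04). Tlr7, the endosomal sensor of single-stranded RNA, was at 15.0, 10.2, 74.1 and 114 against 117 over 189 to 290 (2.45 ± 0.65, adjusted p = 0.0275). All 3 are also expressed by myeloid cells.

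Socs3, a feedback inhibitor of cytokine receptors, was at 548, 291, 562 and 317 without laser and from 767 over 909 to 1341 with laser (1.19 ± 0.25, adjusted p = 0.00459 by limma). Irf8, a factor that myeloid lineages require, rose by 1.97 ± 0.39 (adjusted p = 0.00301 by limma), from 147, 251, 371 and 166 to between 573 and 1185. Cxcl9, a chemokine induced by interferon gamma, was at 7.11, 2.69, 14.4 and 138 against 42.2 over 186 to 259 (3.07 ± 0.86, adjusted p = 0.0388 by limma). Its groups overlapped through library 27. The receptors Ifnar1 (0.51 ± 0.17, adjusted p = 0.0893) and the kinases Jak1 (0.19 ± 0.16) and Tyk2 (-0.03 ± 0.14) did not pass. The calls of Sting1, Irf8 and Socs3 held under all 37 alternatives. Tlr7 lost its call without library 21 (adjusted p = 0.145) or 22 (0.140), Ifnar2 under 12 alternatives with the highest adjusted p of 0.163 without library 21, and Cxcl9 under 15. The difference of Cxcl9 was 2.36 without library 22 (adjusted p = 0.170), 4.11 without library 27, and 1.23 with array weights (adjusted p = 0.189), which give less weight to libraries far from their group.

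In Ceacam1-/- choroid 2 of the 43 rose with laser and none fell, where 3.72% of all genes passed. Socs3 was at 296, 414, 435 and 378 against 337 over 895 to 981 (0.99 ± 0.26, adjusted p = 0.0327 by limma) and Sting1 at 97.2, 218, 142 and 225 against 197 over 539 to 824 (1.37 ± 0.37, adjusted p = 0.0415). For both genes the groups overlapped. Socs3 lost its call when library 5, 6, 7, 24, 25 or 28 was left out (adjusted p up to 0.0939) and Sting1 without 3, 4, 5, 6, 7, 11, 12, 23, 24, 25 or 27 (up to 0.179). No gene of the 43 passed in the interaction or between genotypes. With laser all 6 receptors had a difference between genotypes below 0, with a median of -0.38, where 51.2% of all genes were above 0. Below 0 were also all 8 endothelial markers (median -0.54), all 5 melanocyte markers (-1.07), all 6 RPE markers (-1.58), all 6 muscle markers (-1.41) and 12 of 14 myeloid markers (-0.52), and the part of this composition in the receptors' values was not tested.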

How the data were processed

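Reads of SMART-Seq libraries were checked with FastQC 0.11.5, quantified against GRCm39 with Salmon 1.10.3 and normalized in DESeq2 1.44.0 (per the labels and the submitters' processing notes). The authors deposited normalized counts, which are estimated counts scaled for library size and transcript length and are treated here as a signal, for 56065 genes. They were not whole numbers of reads, and read depth was not given. Deposited values summed to between 23704000 and 35094000 per library. Positions came from the GENCODE annotation of GRCm39, which matched 99.1% of the genes.

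Groups were taken from the labels. Values were tested as log2(value + 1) with limma 3.58.1 in R 4.3.3 (trend on the mean) over genes with a mean of at least 10 in the fit, with Benjamini-Hochberg adjustment over all genes tested and a threshold of 0.05. Laser and interaction were fitted on 24 libraries, genotype on the 8 unlasered or the 16 lasered ones. The study's methods use sex as a covariate, which the labels do not give, so that all 24 libraries were fitted without sex. They also leave out 1 outlier library without naming it, and whether it is among these 24 is not known. After that removal the study compared 4 wild type and 4 Ceacam1-/- libraries, as many as the unlasered ones here. Single genes were also tested by two-sided exact permutation (12 tests, unadjusted). The genes tested so were the 3 members of lowest p by limma in a comparison, on the same values. Their permutation p-values are therefore no separate evidence. Members are shown in full for the 3 of lowest p where none passed, and pathway genes where they passed. Results for 1 gene of the pathway list are not reported here. The members and lists were chosen with earlier results of these data known. Other pseudocounts, filters, scalings and variance settings, array weights, a covariate from Y-linked genes, fits on fewer libraries and the omission of single libraries were tried as alternatives. Tables were made with Python 3.11.15 and scipy 1.17.1.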

Additional observations from a re-analysis of the deposited data

Results flagged for a closer look

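Of 164 sets of values (41 genes in 4 groups), 30 held a library far from the others by Dixon's ratio at the 95% level on normalized counts. Chance alone flags about 1 in 20 groups. Over all 19950 genes 11.3% of the sets held such a library, and 18.3% over the members. Library 15 of the Ceacam1-/- laser group gave 14 of the 30 and library 28 of the unlasered Ceacam1-/- group 13. They stood apart for 34.1% and 31.7% of the members and for 4.05% and 4.11% of all genes.

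In library 15 these were Oas3 (1738.5), Oasl1 (2956.9), Ifit1 (12280), Dtx3l (2535.8), Oas2 (1825.6), Oasl2 (6931.7), Ifit3b (6624.7), Ifi44 (1985.8), Herc6 (1755.2), Zbp1 (1689.1), Isg15 (4630.3), Irf1 (3546.3), Ifih1 (1943.6) and Parp9 (2656.5), each the highest of 7 libraries. In library 28 they were Isg15 (3071.1), Oas3 (677.68), Oasl2 (4442.8), Oas1a (1077.9), Oasl1 (1625.9), Zbp1 (647.5), Dhx58 (479.64), Irf7 (2447.6), Irf1 (2713.8), Parp9 (1060.4), Ifi44 (820.16), Rtp4 (2277.3) and Usp18 (1166), each the highest of 4 libraries. Both libraries had the highest sums of surface epithelium markers of all 24, 393500 and 391660, and the part of that tissue was not tested.

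The remaining 3 lay in other libraries. Mx2 was at 218.77 in library 7 (Ceacam1-/- with laser) and Rsad2 at 1203.7 in library 1 (wild type with laser), both the highest of their groups. Rtp4 was at 381 in library 21 (wild type without laser), the lowest of its group.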

How the results depend on the processing

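The groups share no library number, and each number marks 1 library. Such numbers cannot show whether libraries came from the same litter or animal, and the labels used here do not give it. No paired analysis was therefore possible. With laser in wild type choroid, array weights (which count libraries far from their group less) called 10 members and 17 pathway genes, and called 32.6% of all genes. A fit on the 13 wild type libraries alone called 3 members (Ifitm3, Bst2 and Ifit3) and 14 pathway genes, with 11.6% of all genes. Without the photoreceptor-rich libraries 10 pathway genes passed (8.39% of all genes). In Ceacam1-/- choroid array weights called 11 members and 13 pathway genes (17.8% of all genes), and leaving out the photoreceptor-rich libraries 5 and 17 (14.9%). Pathway genes there numbered 0 without a filter (1.08% of all genes), after quantile normalization (3.1%) and in a fit on the Ceacam1-/- libraries alone (0.187%), and 1 after upper-quartile scaling (3.5%) or with the Y-linked covariate (3.18%). Between genotypes with laser array weights called 4 members, Mx1, Irf7, Oas2 and Stat2 (1.5% of all genes). The cause of these shifts was not tested.

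Leaving out single libraries moved the members called in Ceacam1-/- choroid between 0 and 1 (Ifit2 without library 23, adjusted p = 0.0398 by limma, 0.00273 to 0.634 over its alternatives), where 12.5% of all genes passed, and the pathway genes between 0 (without library 5, 6, 7, 24 or 25) and 4 (without library 18). The share of all genes then ran from 0.742% without library 25 to 12.5% without library 23. In wild type choroid 3 to 7 pathway genes passed, with 3 without library 21 (2.4% of all genes) or 22 (3.62%), and no member. None of the 23 differences of single genes that were refitted (the 3 members of lowest p in each comparison and the pathway genes that passed) reversed its sign in any alternative, whereas the median interaction of the members ran from -0.35 to 0.39. The 2 leave-outs of libraries 15, 22 and 28 and of 14, 15, 18, 21 and 23 were chosen after seeing the data. Of the counts of members and pathway genes called, the members' medians and the ISRE share under alternatives other than leaving out 1 library, 179 values stayed close (a count within 1.5 times, a median within the spread between libraries, a share within its interval), and the 15 others are those given above. For the medians this rule is wide and does not show that they were stable. Counted as close were an interaction median going from -0.11 to 0.30 without the photoreceptor-rich libraries and a lasered genotype median going from 0.24 to 0.02 without libraries 15, 22 and 28. Limits are 4 libraries a side without laser, unequal tissue between libraries, unknown sex, and genes such as Oas3 with an SE above 1 on the log2 scale.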
